A study of Homo sapiens with 4 samples.

Results

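Transcripts of 8 genes through which fibroblasts sense blood-clotting proteases and kinins were followed in MRC5, an established fibroblast line from human fetal lung. They are the 4 protease-activated receptors (F2R, F2RL1, F2RL2 and F2RL3), the bradykinin receptors (BDKRB1 and BDKRB2), tissue factor (F3) and thrombomodulin (THBD). The genes were taken by symbol, and all 8 were among the 26255 genes listed for each library. The set was proposed with the values of miRs against control already known, so its members' differences and their errors are given as a description, with no test. Of 4 libraries, 2 came from wild-type MRC5 cells whose treatment label says no (control) and 2 from wild-type MRC5 cells treated with miRs (microRNAs, short RNAs that lower the messenger RNAs they pair with). All 4 sample titles read 48 h. The labels leave the microRNAs unnamed. The series title speaks of a negative-control microRNA, whereas the control samples are labelled as untreated, so what the control cells received is not settled. No label says whether the replicates of a group were separate cultures, so the p-values cover only library-to-library spread, which can be technical.

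Protease-activated receptors are G-protein-coupled receptors that carry their own ligand: a protease such as thrombin or trypsin clips the outer end of the receptor, and the new end folds back to switch it on. Tissue factor is the membrane cofactor that starts the extrinsic clotting pathway, whose proteases reach these receptors, and thrombomodulin binds thrombin and turns it towards activating protein C. Bradykinin, released from kininogen by kallikreins, acts on BDKRB2, the widely expressed receptor, while BDKRB1 answers its des-Arg form and is known as a receptor induced by injury and inflammation. In lung fibroblasts, thrombin acting through F2R is known to drive proliferation and matrix production.

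F2R, F2RL1 and F2RL2 lie next to each other on chromosome 5, and BDKRB2 and BDKRB1 next to each other on chromosome 14. F3 is on chromosome 1, F2RL3 on chromosome 19 and THBD on chromosome 20. RefSeq promoter windows (GRCh38.p14, 250 bases before to 50 after the gene start) were found for 6 of the 8 genes, all but F2R and THBD. Those windows were searched on both strands for 6 motifs: GGGNNTTCC (a short NF-kB form), TGANTCA (AP-1), GGGCGG (SP1), GCGTGGGCG (EGR1), GAAANNGAA (a short form of the interferon-stimulated response element) and TATAAA (the TATA box). The 4 windows below are shown because they belong to chromosome 5 neighbours with opposite differences (F2RL1 and F2RL2), to the gene with the largest negative difference of the set (BDKRB2) and to the most abundant gene of the set (F3). Capitals mark the motif matches, either strand, and sequences run from 5′ to 3′ along the gene's strand.
F2RL1, chr5:76818780-76819079, plus strand: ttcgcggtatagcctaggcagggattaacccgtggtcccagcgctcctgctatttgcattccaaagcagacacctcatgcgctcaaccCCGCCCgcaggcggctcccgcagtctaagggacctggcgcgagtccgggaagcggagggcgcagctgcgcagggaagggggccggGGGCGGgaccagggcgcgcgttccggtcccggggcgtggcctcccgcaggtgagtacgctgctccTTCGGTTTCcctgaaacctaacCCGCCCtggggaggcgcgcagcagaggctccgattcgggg
F2RL2, chr5:76623354-76623653, minus strand: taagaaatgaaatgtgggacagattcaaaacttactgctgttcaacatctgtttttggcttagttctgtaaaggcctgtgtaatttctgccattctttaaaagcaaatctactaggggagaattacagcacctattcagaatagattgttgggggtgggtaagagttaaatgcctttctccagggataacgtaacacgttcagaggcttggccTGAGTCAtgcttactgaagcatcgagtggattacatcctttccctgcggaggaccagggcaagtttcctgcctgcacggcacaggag
BDKRB2, chr14:96204589-96204888, plus strand: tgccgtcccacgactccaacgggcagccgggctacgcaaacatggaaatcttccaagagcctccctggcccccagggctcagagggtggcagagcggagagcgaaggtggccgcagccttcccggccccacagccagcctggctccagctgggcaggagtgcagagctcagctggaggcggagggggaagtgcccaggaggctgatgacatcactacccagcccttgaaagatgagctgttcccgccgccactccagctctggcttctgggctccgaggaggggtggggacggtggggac
F3, chr1:94541710-94542009, minus strand: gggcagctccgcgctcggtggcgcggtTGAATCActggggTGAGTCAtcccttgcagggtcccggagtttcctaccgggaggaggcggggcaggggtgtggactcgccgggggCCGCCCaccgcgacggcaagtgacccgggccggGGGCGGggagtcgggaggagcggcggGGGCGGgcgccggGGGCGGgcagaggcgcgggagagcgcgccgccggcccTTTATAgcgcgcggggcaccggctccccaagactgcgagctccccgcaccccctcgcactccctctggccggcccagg

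The F2RL1 window held 3 SP1 matches, at 162 and 77 bases before the start and 11 bases into the gene, of which only the middle one read along the gene's strand, and 1 interferon-response match on the opposite strand, 12 bases before the start. SP1 letters occur in 45.0% of all 35116 promoter windows of this length and the short interferon-response form in 8.11%. The F2RL2 window held 1 AP-1 match, 37 bases before the start, a motif found in 7.71% of windows. The F3 window held 2 AP-1 matches and 4 SP1 matches. It also held the letters TATAAA on the strand opposite the gene, 28 bases before the start, and 11.5% of windows hold them on either strand. None of the 6 motifs was found in the windows of BDKRB2, BDKRB1 or F2RL3. The NF-kB form (6.58% of windows) and the EGR1 motif (0.795%) matched in none of the 6 windows. A match is a string of letters in this window and a missing match says nothing about the factor. GC content was 77.3% in the F3 window, 69.0% in that of F2RL1, 67.3% in that of F2RL3, 67.0% in that of BDKRB2, 45.0% in that of BDKRB1 and 44.7% in that of F2RL2, with a median of 58.7% over all windows.

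Levels are FPKM (fragments per kilobase of transcript, adjusted for library size), which allows levels of different genes to be set side by side per length. Differences are miRs minus control on the log2(FPKM + 1) scale, fitted with limma across the 11860 genes that averaged 1 FPKM or more. Their SEs are moderated: limma draws each gene's variance towards that of genes at a similar level. Such an SE understates the spread of a gene whose replicates lay far apart and overstates that of a gene whose replicates lay close. Pairs of values are given in the order replicate 1, replicate 2. On that scale the changes of low genes come out too small. Between 11622 and 11781 genes per library reached 1 FPKM. The read totals are not in the files. Low values move in steps, from which the worth of 1 fragment could be compared: it was 1.05 in control replicate 2, 0.899 in miRs replicate 1 and 1.03 in miRs replicate 2, with control replicate 1 set to 1. The 2 miRs libraries lay further apart than the controls: 725 tested genes differed by over 1 on the log2 scale between the former and 71 between the latter. All 12 fibroblast markers were at 1 FPKM or more in at least 1 control library. Both miRs libraries lay below both controls for 6 of them (VIM, THY1, DCN, LUM, FAP and FN1) and above for S100A4, against 30.0% and 29.5% of all tested genes. DCN was at 963 and 1223 against 352 and 419 FPKM and FAP at 30.5 and 33.8 against 7.91 and 11.7 FPKM. The summed level of the list was 12151 to 13028 FPKM in control and 8380 to 12963 FPKM in miRs, and its part in the members' values was not tested. The mean in miRs was 0.595 times the control mean for ACTB, 0.785 times for GAPDH, 0.706 times for VIM and 1.37 times for COL1A1. COL1A1 was at 1910 FPKM in miRs replicate 1 and 4742 FPKM in miRs replicate 2. Polyadenylated RNA of a whole culture was measured, so fewer cells that make a transcript and less of it per cell cannot be told apart.

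The control cells expressed both families and much tissue factor. In order of mean control FPKM the genes were F3, F2R, BDKRB1, BDKRB2, F2RL2, F2RL1, THBD and F2RL3, from 370 FPKM down to 0. F3 stood at rank 184 of all genes in control replicate 1 and 234 in control replicate 2. BDKRB2 and F2RL2 did not differ beyond their spread, since the 2 BDKRB2 values lay between those of F2RL2, and every other pair of neighbours in the order was separated in both controls. In miRs the order became F3, F2R, BDKRB1, F2RL1, F2RL2, BDKRB2, THBD and F2RL3. There F2R and BDKRB1 overlapped, as did F2RL2 and BDKRB2. F2RL1 was the gene that changed place beyond the spread: in both controls it was below F2RL2 and BDKRB2, and in both miRs libraries above them.

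**Figure D1:**
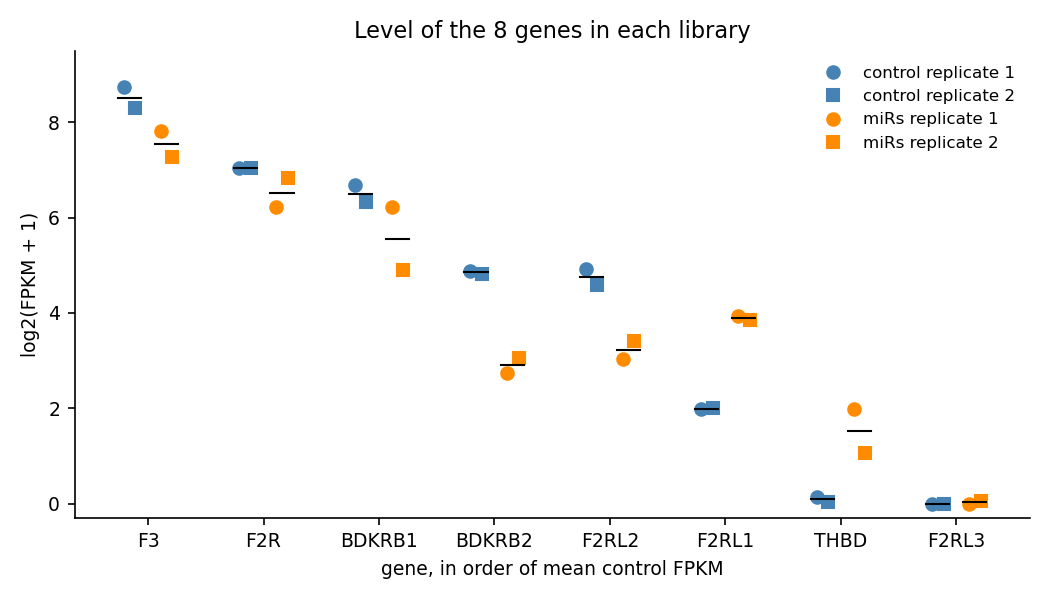
Level of each gene in each library as log2(FPKM + 1), genes ordered by mean control FPKM; circles are replicate 1, squares replicate 2, and black bars the group means. F2RL1 and THBD lie higher in both miRs libraries, 5 genes lie lower, and F2RL3 sits at or next to 0.

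Among the 7 genes that passed the minimum of 1 FPKM, both miRs libraries lay above both controls in 2 (F2RL1 and THBD) and below both controls in 5 (F2R, F2RL2, BDKRB1, BDKRB2 and F3). Over all tested genes 29.5% lay above in this way and 30.0% below. THBD passed the minimum only through its miRs values, so that its difference had to be there. Since the set was chosen from this contrast, nothing is read from these shares.

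F2RL1 encodes PAR2, the receptor opened by trypsin, tryptase and the factor VIIa and Xa complexes of tissue factor rather than by thrombin. It was at 2.94 FPKM in control replicate 1 and 2.99 FPKM in control replicate 2, and at 14.3 FPKM in miRs replicate 1 and 13.5 FPKM in miRs replicate 2. The 2 libraries of each group were close and the groups stood far apart. Its mean FPKM was 4.68-fold higher in miRs, with a log2 difference of 1.91 ± 0.13 (SE, n = 2 each). The gap between the miRs libraries, 0.08 on the log2 scale, was smaller than the median gap of 0.27 over all tested genes. By rank of the log2 difference, F2RL1 was number 123 from the top of 11860.

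F2R encodes PAR1, the main thrombin receptor of fibroblasts. It was at 130 FPKM and 132 FPKM in control replicates 1 and 2, at 73.2 FPKM in miRs replicate 1 and at 113 FPKM in miRs replicate 2. Both miRs values were below the controls, the second by little. The mean was 93.0 ± 28.1 FPKM in miRs and 131 ± 0.779 FPKM in control (SD, n = 2 each), and the log2 difference was −0.52 ± 0.23 (SE). Taken against the control mean, the first miRs library stood at −0.83 and the second at −0.21, so its size rests on which miRs library is used.

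F2RL2 encodes PAR3, a thrombin receptor that signals weakly by itself and is known as a cofactor for other family members. Its values were 29.1 and 23.0 FPKM in control against 7.23 and 9.59 FPKM in miRs. Every miRs value was less than every control value by a margin wider than the spread within either group. Mean FPKM was 3.10-fold lower in miRs, with a log2 difference of −1.53 ± 0.20 (SE, n = 2 each). F2RL2 lies within IQGAP2 on the opposite strand, and the strand setting of the counting is not given in the sources used here. IQGAP2 itself was listed at 0.0823 to 0.190 FPKM over the 4 libraries.

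F2RL3 encodes PAR4, the second thrombin receptor of human platelets. It was listed at 0 in both controls and in miRs replicate 1 and at 0.0333 FPKM in miRs replicate 2, so it was not detectable in 3 of the 4 libraries and near nothing in the other. No fold is given. It was the one gene of the 8 that failed the minimum. Among 10 markers of platelets and megakaryocytes PF4, PPBP, GP9 and TREML1 were at 0 in all libraries, and the list's sum of 18.7 to 22.5 FPKM over the 4 libraries came almost wholly from NRGN, at 17.8 to 22.2 FPKM.

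The make-up of the family shifted with these values. F2RL1 made up 1.81% and 1.90% of the summed FPKM of the 4 receptors in control replicates 1 and 2, and 15.1% and 9.92% in miRs replicates 1 and 2. F2RL2 made up 17.9% and 14.6% in the controls and 7.64% and 7.06% in miRs. F2R stayed the main transcript, with 80.3% and 83.5% in the controls and 77.3% and 83.0% in miRs. The F2R level was 44.4 and 44.0 times that of F2RL1 in control replicates 1 and 2, and 5.13 and 8.37 times in miRs replicates 1 and 2. Summed over the family, FPKM was 162 and 158 in the controls and 94.7 and 136 in miRs.

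**Figure D2:**
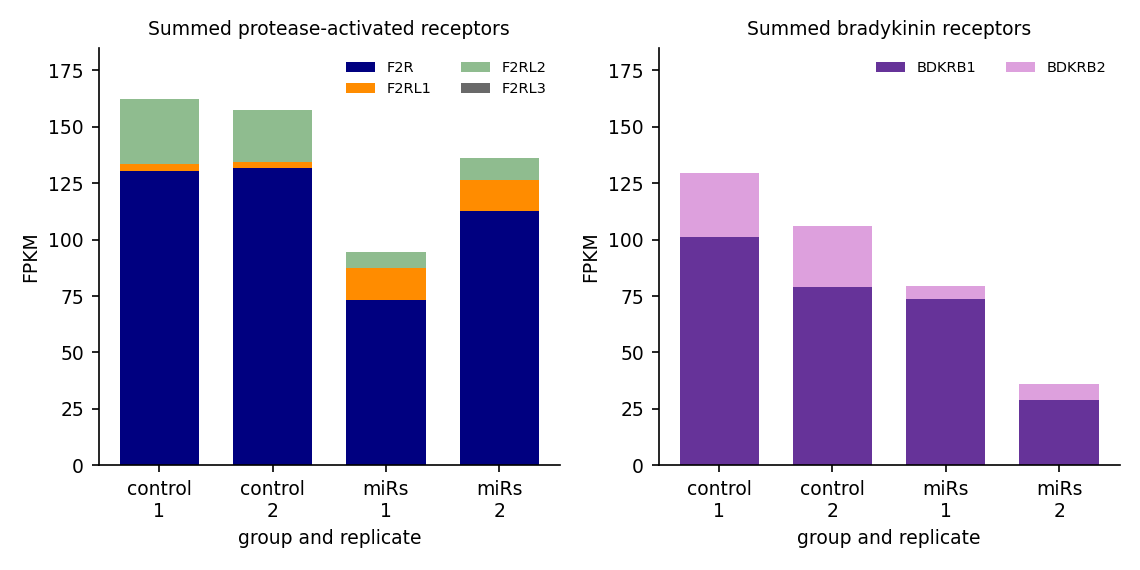
Stacked FPKM of the protease-activated receptors (left) and the bradykinin receptors (right) in each library, both axes from 0. The F2RL1 segment is wider in the 2 miRs libraries (15.1% and 9.92% of the sum) than in the controls (1.81% and 1.90%), and both segments of the bradykinin receptors are narrower.

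BDKRB2, the receptor for intact bradykinin, had 28.3 and 27.3 FPKM in control against 5.65 and 7.34 FPKM in miRs. The groups were far apart. The miRs libraries differed by 0.33 on the log2 scale, more than in 58.2% of tested genes, and the controls by 0.05. Mean FPKM was 4.28-fold lower in miRs, with a log2 difference of −1.95 ± 0.16 (SE, n = 2 each). Counted from the most negative difference, BDKRB2 was number 44 of the 11860 tested genes.

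BDKRB1, the inducible receptor, measured 101 and 78.8 FPKM in the 2 controls, 73.6 FPKM in miRs replicate 1 and 28.8 FPKM in miRs replicate 2. The first miRs value was just under the lower control, and the second was far under it. The log2 difference was −0.94 ± 0.47 (SE, n = 2 each), made up of −0.28 for the first miRs library and −1.60 for the second. The gap of 1.32 between the miRs libraries was larger than that of 96.9% of tested genes. BDKRB1 made up 78.1% and 74.3% of the summed FPKM of both bradykinin receptors in the controls and 92.9% and 79.7% in the miRs libraries. GENCODE 29 annotates a protein-coding gene on the same strand that overlaps both bradykinin receptors. That gene is not listed among the genes of these libraries, and the annotation used for counting is not stated. How fragments were shared between the 2 receptors is therefore uncertain.

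F3, tissue factor, was the most abundant of the 8 in every library. The controls held 425 and 314 FPKM, and the miRs libraries 225 and 154 FPKM. Both miRs values were below both controls, although the spread within each group was wide. Mean FPKM was 1.95-fold lower in miRs, with a log2 difference of −0.97 ± 0.26 (SE, n = 2 each). The gap between the controls, 0.43, exceeded that of 94.7% of tested genes.

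THBD, thrombomodulin, went the other way from tissue factor. It measured 0.107 and 0.0225 FPKM in the 2 controls, close to nothing. The miRs libraries held 2.93 and 1.08 FPKM. Both miRs values were above both controls, and the first was 2.72 times the second. Corrected for the worth of 1 fragment, the 4 values were whole multiples of the smallest, to within 0.002: 5, 1, 152 and 49 in control replicates 1 and 2 and miRs replicates 1 and 2. If the smallest value is 1 fragment, the controls together held 6 fragments and the miRs libraries 201. The ratio per unit of depth is then 31.3, a description of these 4 libraries. On the log2(FPKM + 1) scale the difference was 1.43 ± 0.36 (SE, n = 2 each), and 3.57 with a pseudocount of 0.1. The level of F3 was over THBD by a factor of 3964 and 13951 in control replicates 1 and 2 and of 76.7 and 143 in miRs replicates 1 and 2.

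Thrombomodulin is best known from endothelium. Of 12 endothelial markers, EMCN and ERG were at 0 in all libraries, PECAM1 and CDH5 at 0 in both controls and in miRs replicate 2, with 0.0174 and 0.0188 FPKM in the other miRs library. TEK, at 5.51 to 13.7 FPKM over the 4 libraries, and EGFL7, at 6.04 to 7.20 FPKM, made up most of the summed level of the list, 18.8 to 22.0 FPKM in the controls and 15.6 to 25.5 FPKM in miRs. Both miRs libraries lay above both controls for 3 of the markers: ESAM, a junction protein of endothelium and platelets, went from 0.296 and 0.310 to 3.68 and 1.62 FPKM, TIE1 from 0.155 and 0.0933 to 0.625 and 0.251 FPKM and ROBO4 from at most 0.902 to 1.26 and 0.984 FPKM. For CLDN5, at 0.115 FPKM or less throughout, both lay below. Over all tested genes, which average 1 FPKM or more, 29.5% lay above and 30.0% below. Several of the markers here are under that level and outside those shares. Epithelial cells also make F2RL1 and F3. The summed level of 14 epithelial markers was 30.3 to 32.5 FPKM in the controls and 201 to 268 FPKM in miRs, with 3 markers at 1 FPKM or more in at least 1 control library and 7 in at least 1 miRs library. KRT18 made up most of that sum, with 17.7 and 19.4 FPKM in control against 137 and 194 FPKM in miRs. Both miRs libraries were above both controls for 7 of the 14 epithelial markers and below for 0 (29.5% and 30.0% over all tested genes). Besides KRT18 these were KRT19 (6.15 and 6.05 against 29.7 and 35.5 FPKM), KRT8 (4.47 and 5.07 against 14.6 and 29.3 FPKM), CLDN4 (0.907 and 0.371 against 11.8 and 3.36 FPKM), CLDN7 (0.596 and 0.974 against 3.99 and 3.19 FPKM), EPCAM (0 and 0.228 against 1.07 and 1.61 FPKM) and ESRP2 (0.430 and 0.384 against 0.947 and 0.772 FPKM). ESRP1, GRHL2 and KRT5 were at 0 in all 4 libraries, and CDH1 was at 0 in both miRs libraries. Several epithelial markers, EPCAM and ESRP2 among them, averaged under 1 FPKM and are outside the shares of all tested genes. For markers at 0 in both controls a lower miRs value was not possible. What part endothelial or epithelial transcripts have in the F2RL1 and THBD values was not tested. Summed smooth muscle and pericyte markers were at 603 to 884 FPKM in control and 364 to 746 FPKM in miRs, most of the sum except in miRs replicate 2 being ACTG2 (563 and 337 against 542 and 174 FPKM). Of these 10 markers 6 had each miRs value under each control value (MYH11, LMOD1, SYNPO2, CNN1, RGS5 and NOTCH3) and 3 had each over (DES, CSPG4 and MCAM), against 30.0% and 29.5% of all tested genes. MYH11, at 0.202 to 0.387 FPKM over the 4 libraries, was not tested and is outside those shares. CNN1 went from 104 and 67.3 to 11.2 and 17.5 FPKM, LMOD1 from 34.2 and 31.5 to 2.43 and 7.92 FPKM and SYNPO2 from 14.2 and 7.61 to 0.897 and 0.398 FPKM. Leukocyte markers summed to 53.8 to 57.7 FPKM in control and 42.1 to 131 FPKM in miRs, nearly all of it CD68, with CD3E, ITGAM and AIF1 at 0 throughout.

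**Figure D3:**
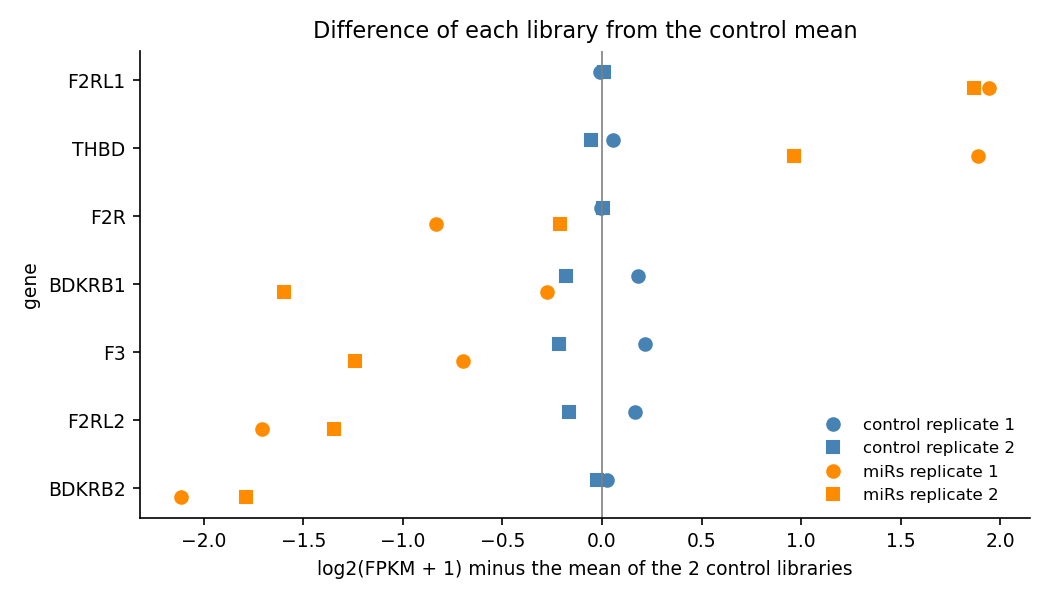
Each library's log2(FPKM + 1) minus the mean of the 2 controls, for the 7 genes that passed the minimum; circles are replicate 1 and squares replicate 2. The miRs points of F2RL1 (1.94 and 1.87) and BDKRB2 (−2.11 and −1.79) lie close together, while those of BDKRB1 (−0.28 and −1.60) are far apart.

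Neighbouring genes on the chromosome were set beside the members. In the block of 3 receptors on chromosome 5, F2RL2 and F2R were lower and F2RL1 higher in miRs. The genes next outside the block were silent or nearly so, with S100Z and SV2C listed at 0 in all libraries, CRHBP at 0 to 0.151 FPKM and IQGAP2 at most 0.190 FPKM. On chromosome 14 the neighbour on the BDKRB2 side, C14orf132, measured 8.74 and 9.88 FPKM in the controls and 2.57 and 5.83 FPKM in miRs, a log2 difference of −1.06 (adjusted p = 0.164 in limma). ATG2B, an autophagy gene on the BDKRB1 side, had a log2 difference of −0.50 (adjusted p = 0.173 in limma), and GSKIP, the next gene out, lay the other way at 7.36 and 7.94 against 11.7 and 9.86 FPKM (0.44, adjusted p = 0.172). TUNAR, beyond C14orf132, was at 0 in 3 of the libraries. Beside F3, ABCD3 differed by −0.15 (adjusted p = 0.572 in limma) and CNN3, a calponin 2 genes away, by −0.71 (adjusted p = 0.0835), while ARHGAP29 and SLC44A3 overlapped between the groups. Beside THBD, SSTR4 was at 0 in all libraries, and CD93 was listed at 0 in each control and had 0.0227 and 0.0130 FPKM in miRs. NXT1, 2 genes from THBD, measured 9.78 and 10.7 FPKM in the controls and 16.9 and 13.4 FPKM in miRs (0.52, adjusted p = 0.161). Around F2RL3, SIN3B differed by −0.10 (adjusted p = 0.668) and HAUS8 by 0.29 (adjusted p = 0.518), and NWD1 and CPAMD8 stayed at or under 0.0728 FPKM. None of the tested neighbours outside the set passed an adjusted p of 0.05. Over all tested genes only 0.101% were called higher and 0.143% lower in limma, so nothing is read from that.

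Genes whose profile was most like that of each member were taken by the distance between centred log2(FPKM + 1) values over the 4 libraries, which hold few degrees of freedom. For F2RL1 they were SMOX (distance 0.10), TRIM25 (0.23) and CNIH3 (0.23), which went from 10.9 and 10.2 to 40.8 and 41.4 FPKM, from 17.1 and 17.6 to 60.2 and 55.4 FPKM and from 1.44 and 1.23 to 9.56 and 7.42 FPKM. For BDKRB2 they were ICAM5 (0.11), NOTCH3 (0.12) and HBD (0.19), and NOTCH3 went from 31.7 and 31.2 to 6.25 and 9.15 FPKM. For F2RL2 they were SCD5, ADAMTS8 and PITPNM3 (0.11 to 0.15), for F2R ASL, TMEM256 and PNPLA6 (0.01 to 0.04) and for BDKRB1 CCND1, CDH6 and SHCBP1 (0.18 to 0.23). CCND1, cyclin D1, measured 414 and 304 FPKM in the controls and 269 and 126 FPKM in miRs. For F3 they were WNT5B, GALNT18 and CRYAB (0.08 to 0.16) and for THBD ESAM and OAF (both 0.11), of which OAF went from 29.8 and 30.2 to 109 and 57.2 FPKM. ESAM averaged under 1 FPKM in control and ADAMTS8 in miRs, so each passed the minimum only through the other group. A difference had to be there for both.

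The rest of the pathway was described with 7 gene lists that leave the 8 members out. None of their 127 tested genes passed an adjusted p of 0.05 in limma, against 0.101% of all tested genes called higher and 0.143% called lower, and 40 had an unadjusted p under 0.05, 16 higher and 24 lower in miRs. Over all tested genes 2872 had an unadjusted p under 0.05, 1331 higher and 1541 lower. The count past the adjusted threshold depended strongly on which library was left out, and so did the count over all tested genes. Differences below are therefore given as values. Some list genes averaged under 1 FPKM in control or in miRs and passed the minimum only through the other group. A difference had to be there for them, and they are part of the above and below counts. Of the genes named below these are PRSS3, CPM, ACE, RGS5 and PTGS2.

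Proteases that can open these receptors were few in these cells, with 6 of 24 tested and a median log2 difference of −0.08 (all genes 0.00). The median was 0.34 without control replicate 1, −0.25 without control replicate 2, −0.42 without miRs replicate 1 and 0.33 without miRs replicate 2. F10, the zymogen of factor Xa, had 15.5 and 17.1 FPKM in control against 5.53 and 7.39 FPKM in the miRs libraries (log2 difference −1.22, adjusted p = 0.0715 in limma). MMP1, a collagenase that also cleaves PAR1, was at 72.0 and 58.4 against 177 and 98.7 FPKM (log2 difference 1.02, adjusted p = 0.158). FURIN, a proprotein convertase, and PRSS3, a trypsinogen, had log2 differences of −0.19 and −0.27. The plasminogen activators PLAU and PLAT overlapped between the groups, with PLAU at 248 and 164 against 366 and 151 FPKM.

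Of 21 coagulation inhibitors and cofactors at the cell surface 13 were tested, 3 with both miRs libraries above both controls and 3 below (23.1% each, against 29.5% and 30.0% of all tested genes), and the median was 0.14. That median was 0.22 without control replicate 1, 0.07 without control replicate 2, −0.10 without miRs replicate 1 and 0.62 without miRs replicate 2. SERPINB2, an inhibitor of plasminogen activators, measured 14.3 and 15.1 FPKM in the controls and 118 and 57.3 FPKM in the miRs libraries (log2 difference 2.41, adjusted p = 0.0731 in limma). GAS6, a vitamin K-dependent ligand of TAM receptors, was at 646 and 541 against 303 and 242 FPKM (log2 difference −1.12, adjusted p = 0.0794). SERPINE2, a thrombin inhibitor, was at 66.4 and 34.9 against 139 and 72.2 FPKM (1.04, adjusted p = 0.245). PROCR, the protein C receptor that works with thrombomodulin, lay between 10.6 and 29.4 FPKM, both of them miRs values, with the controls in between.

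In the kallikrein-kinin list 15 of 24 genes were tested, 6 with both miRs libraries above both controls and 1 below (40.0% and 6.67%, against 29.5% and 30.0% of all tested genes), with a median log2 difference of 0.12. The kininogen gene KNG1, the kallikrein genes KLKB1 and KLK1, and F12 were not among the 15, so these counts do not describe them. MME, or neprilysin, measured 4.68 and 3.58 FPKM in the controls and 14.6 and 9.91 FPKM in the miRs libraries (log2 difference 1.36, adjusted p = 0.0857 in limma). ANPEP, aminopeptidase N, was at 49.8 and 47.7 against 83.0 and 70.0 FPKM (0.64, adjusted p = 0.103). CPM, the carboxypeptidase that turns bradykinin into the ligand of BDKRB1, was at 0.891 and 0.724 against 1.47 and 1.60 FPKM (0.49, adjusted p = 0.205). ACE, which destroys bradykinin, was at 1.37 and 1.89 against 0.558 and 1.07 FPKM (−0.54, adjusted p = 0.259). The peptidases CPD, DPP4, PREP, THOP1 and NLN overlapped between the groups. XPNPEP1 (36.0 and 32.2 against 40.1 and 36.4 FPKM) and ECE1 (80.1 and 80.0 against 92.9 and 80.7 FPKM) had both miRs values above both controls, by little.

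The G proteins and effectors had a median of −0.28 over 29 tested of 32 genes, the most negative of the 7 lists with all 4 libraries. Without miRs replicate 1 it was −0.22, and the proteases (−0.42) and the thrombin or bradykinin transcripts (−0.23) were lower. Both miRs libraries were below both controls in 15 (51.7%, against 30.0% of all tested genes) and above in 5 (17.2%, against 29.5%). Among 12 with an unadjusted p under 0.05 in limma, 9 were lower. Over all 11860 tested genes 2872 had such a p, 1541 of them lower. ARHGEF12, a guanine nucleotide exchange factor, measured 29.8 and 29.1 FPKM in the controls and 16.9 and 16.9 FPKM in the miRs libraries (log2 difference −0.77, adjusted p = 0.0769 in limma). GNG2, a gamma subunit, was at 11.5 and 12.3 against 6.43 and 6.22 FPKM (−0.82, adjusted p = 0.0769), and the kinase ROCK2 at 15.1 and 16.1 against 9.61 and 9.37 FPKM (−0.66, adjusted p = 0.0885). ITPR3, an inositol trisphosphate receptor that releases stored calcium, was at 5.15 and 6.36 against 33.4 and 22.0 FPKM (2.06, adjusted p = 0.0632). Among the alpha subunits of the list, GNAQ and GNA11 had log2 differences of −0.41 and −0.52 (adjusted p = 0.176 and 0.110 in limma). GNA12 stood at −0.37 and GNA13 the other way at 0.32 (adjusted p = 0.224 and 0.223). GNAI2 stood at −0.22, while GNAI1 (0.09) and GNAI3 (−0.10) overlapped between the groups. PRKCA stood at 6.73 FPKM in miRs replicate 1 against 30.1 FPKM in miRs replicate 2, with 25.1 and 28.6 FPKM in the controls.

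Of 24 genes of receptor desensitisation and trafficking 20 were tested (median −0.10), with 4 above and 7 below (35.0% below, against 30.0% of all tested genes). BICD1, an adaptor known to act in F2R endocytosis, measured 4.77 and 5.34 FPKM in the controls and 1.92 and 2.35 FPKM in the miRs libraries (log2 difference −0.95, adjusted p = 0.0846 in limma). RGS5, which turns off Gq and Gi signals, was at 3.52 and 2.28 against 0.901 and 0.794 FPKM (−1.06, adjusted p = 0.0983), and RGS2, a Gq inhibitor, at 4.22 and 5.86 against 8.17 and 8.88 FPKM (0.67, adjusted p = 0.136). The arrestin ARRB2 was at 5.29 and 5.85 against 3.57 and 4.48 FPKM (−0.39, adjusted p = 0.236).

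Of 40 other G-protein-coupled receptors of fibroblasts 23 were tested, 6 above and 6 below (26.1% each, near the 29.5% and 30.0% of all tested genes). Their median was 0.09, and 0.04, 0.09, −0.13 and 0.49 without control replicate 1, control replicate 2, miRs replicate 1 and miRs replicate 2. LPAR1, the main lysophosphatidic acid receptor of fibroblasts, measured 151 and 145 FPKM in the controls and 68.4 and 65.1 FPKM in the miRs libraries (log2 difference −1.14, adjusted p = 0.0632 in limma). The sphingosine-1-phosphate receptor S1PR3 was at 21.6 and 20.9 against 11.1 and 11.6 FPKM (−0.85, adjusted p = 0.0715), and the prostaglandin E receptor PTGER2 at 39.6 and 38.3 against 21.4 and 21.9 FPKM (−0.82, adjusted p = 0.0723). The prostaglandin F receptor PTGFR was at 3.97 and 2.99 against 9.35 and 7.08 FPKM (1.04, adjusted p = 0.0925).

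Of 24 transcripts known to be induced in fibroblasts by thrombin or bradykinin 21 were tested, 7 above and 8 below (33.3% and 38.1%, near the 29.5% and 30.0% of all tested genes). Their median was 0.04, and 0.15, −0.12, −0.23 and 0.03 without control replicate 1, control replicate 2, miRs replicate 1 and miRs replicate 2. PTGS2, the inducible cyclooxygenase, measured 0.325 and 0.161 FPKM in the controls and 5.26 and 4.05 FPKM in the miRs libraries (log2 difference 2.18, adjusted p = 0.0605 in limma). It passed the minimum only through its miRs values, so that its difference had to be there. CCL2, a monocyte chemokine, was at 95.4 and 42.2 against 11.5 and 6.03 FPKM (−2.78, adjusted p = 0.0863). ACTA2, the actin of smooth muscle, which has close paralogs and is therefore uncertain, was at 582 and 367 against 127 and 115 FPKM (−1.93, adjusted p = 0.0667). PTGES, a prostaglandin E synthase, was at 2.80 and 2.83 against 1.35 and 1.44 FPKM (−0.67, adjusted p = 0.108). With the replicate number as a block, PTGS2, CCL2 and ACTA2 passed the adjusted threshold.

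**Figure D4:**
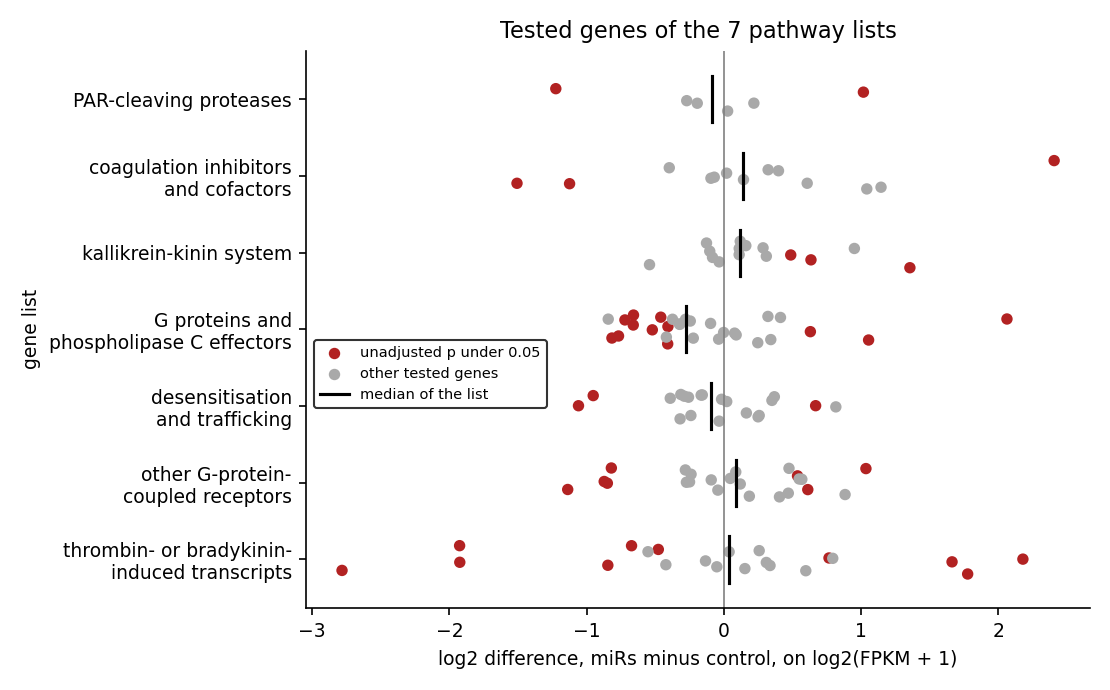
Log2 difference, miRs minus control, of each tested gene in the 7 pathway lists, the 8 members left out; red points have an unadjusted p under 0.05 in limma and black bars are list medians. The medians lie between −0.28 (G proteins and effectors) and 0.14 (coagulation inhibitors and cofactors).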

How the data were processed

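Per the labels' protocols, polyadenylated RNA was sequenced with Illumina's TruSeq Stranded kit. Per the submitters' processing notes the tools were Cuffdiff 2.2.1, TopHat2 2.1.1, SAMtools 0.1.18 and Bowtie2 2.2.8, with hg19. Annotation, strand setting and library scaling are not stated. The deposited values are FPKM per gene symbol, per the file headers, made by the authors. Groups follow the treatment label and replicate numbers the titles.

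Files were joined on symbol. The 11860 genes averaging 1 FPKM or more were fitted on log2(FPKM + 1) in R 4.3.3 (limma 3.58.1, variance trend, no block, 2-sided, Benjamini-Hochberg at 0.05, 2 residual degrees of freedom). With 2 against 2 libraries an exact permutation test cannot go below p = 0.333. FPKM steps depend on transcript length, so reads were not recovered for all genes and no count test was run. Other steps used Python 3.11.15, pandas 2.3.3 and scipy 1.17.1.

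Members and gene lists were chosen with earlier results of these data known. Named are the 8 members, up to 4 tested genes per list with the smallest p, the 3 profiles nearest each member, 2 protein-coding neighbours per side (order from RefSeq GRCh38.p14, not the files' build) and ACTB, GAPDH, VIM and COL1A1. PLAU, PLAT, PROCR, PRKCA, GNAQ, GNA11, GNA12, GNA13, GNAI1, GNAI2, GNAI3, CPD, DPP4, PREP, THOP1, NLN, XPNPEP1, ECE1 and the single cell type markers were picked after their values were seen. The receptor proteins were not compared. A profile near THBD and a gene of the coagulation list are not reported here. Tested on data simulated for miRs against control over 11860 genes, the fit found 3 of 100 genes shifted by a log2 of 1, 74 of 100 shifted by 2 and 4 of 11660 unshifted ones. The simulation gave both groups the same spread and shifted few genes. The real miRs libraries were more scattered than the controls, so these rates need not hold for the real contrast. Alternatives tried were the pseudocount, the minimum, rescaling, quantile normalization, no trend, the replicate block and leaving out each library.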

Additional observations from a re-analysis of the deposited data

How the results depend on the processing

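The number of genes called in limma, 12 higher and 17 lower over all genes, was 0 and 0 with no minimum FPKM (3338 at an unadjusted p under 0.05), 2 and 4 with quantile normalization, 9 and 11 with no variance trend and 41 and 58 with the replicate block. With each library left out in turn it ran from 0 to 1883 higher and from 0 to 2023 lower, being 0 and 0 without control replicate 1 (905 at an unadjusted p under 0.05), 0 and 1 without control replicate 2 (963), 995 and 1196 without miRs replicate 1 and 1883 and 2023 without miRs replicate 2. A fit without 1 library assumes that the lone library varies like the other group. Genes of the pathway lists called numbered 0, 3 with the replicate block and 0 to 65 with a library left out. Same-numbered libraries deviated together with a correlation of 0.201 over genes in the single independent comparison that 2 numbers allow, and no label ties them, so the block is given only here and beside the genes it called.

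Over the alternatives that could be fitted, the members' log2 differences, given as a description, ran from 1.87 to 2.19 for F2RL1, −2.11 to −1.79 for BDKRB2, −1.71 to −1.34 for F2RL2, −1.24 to −0.70 for F3, −1.60 to −0.28 for BDKRB1, −0.83 to −0.21 for F2R and 1.23 to 3.57 for THBD. THBD failed the minimum of 5 FPKM and, without miRs replicate 1, that of 1 FPKM. Depth in reads is unknown, which limits THBD in control and F2RL3 in all libraries. In groups of 2 libraries no single library could be tested as an outlier.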
